A study of Homo sapiens with 4 samples.

Results

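The subject is a set of 9 genes of the NRF2-type redox defence, followed across 4 arrays of MV4-11 cells, a long-established human cell line of monocytic acute myeloid leukaemia driven by the KMT2A-AFF1 fusion. The members are NFE2L2, HMOX1, SLC7A11, GSR, GCLM, GCLC, NQO1, TXNRD1 and SRXN1, taken by gene symbol. The set was chosen with earlier results of these data known, so its counts beside those of all genes are a description. Each is represented by the probe set that lists that symbol alone and, where there are several, has the highest mean over the 4 arrays. They are 9 of 12502 protein-coding genes that exceeded the median of the deposited table (3.08 log2 units) on at least 1 array, and all 9 passed that filter. Every group is the same cell line, transduced with a short hairpin RNA and kept for 24 h in 3 µM doxycycline. The groups are RUNX1 knockdown labelled profound with hairpin 1, RUNX1 knockdown labelled profound with hairpin 2, RUNX1 knockdown labelled moderate, and a control hairpin directed at luciferase. Each group is 1 array, hybridised from 100 ng of total RNA. The labels do not say whether the cells were a clone or a pool. No difference below has a replicate check, so none carries a test, and differences are described by their size.

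NRF2, the product of NFE2L2, is a transcription factor that KEAP1 holds in the cytoplasm and delivers to the CUL3 ubiquitin ligase for degradation. Oxidants and electrophiles modify KEAP1, NRF2 then accumulates, pairs with a small MAF protein and binds antioxidant response elements of its target genes, where BACH1 competes as a repressor. The targets supply cystine, make and recycle glutathione, reduce thioredoxin and quinones, and break down haem. Because NRF2 is controlled mainly through the stability of its protein, the transcript of NFE2L2 is a poor readout of NRF2 activity, and in myeloid cells HMOX1 is also controlled by haem through BACH1.

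The targeted gene was examined as a check of the labels. The RUNX1 probe set, which also lists LOC100506403, read 4.07 log2 units on the array labelled profound 1, 4.04 on profound 2, 4.33 on moderate and 4.27 on control. A graded loss of RUNX1 is therefore not seen in these values. The labels also disagree: titles and genotypes of the arrays called profound 1 and profound 2 name RUNX1 as the target, whereas their description fields name RUNX2 and RUNX3. The groups follow the titles and genotypes, each array is called by the name on its label, and a direction below is one between labels. Of 12 listed markers of the myeloid line, 10 had a probe set of their own and all 10 exceeded the table median on all 4 arrays, among them FLT3, SPI1, CEBPA and LYZ. Of the listed markers of other cell types, 10 exceeded the table median on at least 1 array: EPB42 (erythroid), CD8A and NKG7 (T and NK), CD79A, CD79B and PAX5 (B), COL1A1 (fibroblast), and KRT8, KRT18 and KRT19 (epithelial). Others of the same lists, among them HBB, CD3D, CD3E, MS4A1, DCN, LUM and EPCAM, were below it on all 4 arrays. The 4 array medians lay between 3.07 and 3.09.

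The array labelled profound 1 held the highest signal of all 9 members, whereas profound 2, moderate and control held the highest signal of 0. Among all tested genes, 30.3% were highest on the array labelled profound 1. The lowest signal was on profound 2 for 5 members, on moderate for 1 and on control for 3. Compared with control, the median difference of the 9 members was 0.20 log2 units on profound 1, -0.05 on profound 2 and 0.07 on moderate, where the medians of all tested genes were 0.00, 0.00 and 0.01. On the probe sets used, only HMOX1, SLC7A11 and GSR were at least 1.5-fold (0.58 log2 units) from control on any array. The place of SRXN1 in the count of 9 rests on its brighter probe set, since with the mean of its 2 probe sets it read 0.03 log2 units below control on profound 1 (-0.03) and 8 members were highest there.

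**Figure D1:**
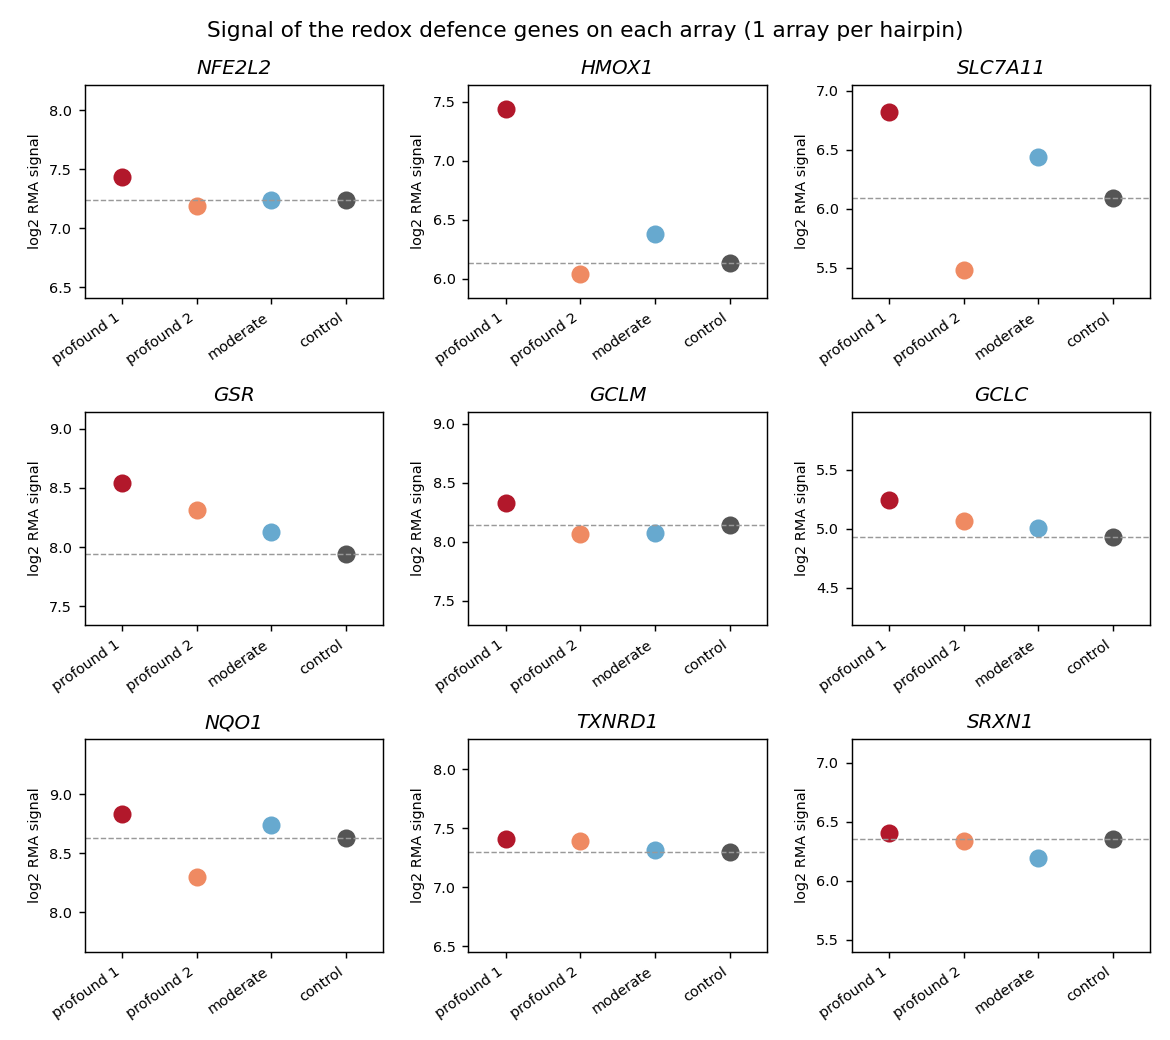
Each panel shows the log2 RMA signal of 1 gene on the 4 arrays (points), with the control level as a dashed line, on axes of equal span. The array labelled profound 1 is highest in all 9 panels, and the spread between arrays is widest for HMOX1 and SLC7A11.

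At 1.5-fold, 3 of the 9 members were higher and 0 lower on the array labelled profound 1 than on control, where 2.69% of all tested genes were higher and 4.04% lower. On profound 2, 0 members were higher and 1 was lower, with 1.2% of all genes higher and 1.02% lower. On the array labelled moderate 0 of 9 passed in either direction, with 1.3% of all genes passing. The sign of the difference from control was positive for 9 members on profound 1, for 3 on profound 2 and for 6 on moderate, against 49.5%, 49.7% and 51.9% of all tested genes. SRXN1 turned positive on profound 2 after cyclic loess (4 members), and 5 members were positive on moderate after median centring. These comparisons share the control array, and all those with profound 1, here and below, use the same 1 array. In bulk RNA, more cells in a given state and more RNA per cell cannot be told apart.

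HMOX1 encodes the inducible haem oxygenase, which cleaves haem to biliverdin, carbon monoxide and iron. It read 7.44 log2 units on profound 1, 6.04 on profound 2, 6.38 on moderate and 6.14 on control. The signal stood alone at the top on profound 1, while the other 3 arrays lay within 0.34 of each other. The difference between profound 1 and control was 1.30, or 2.46-fold, and 10 of the 12502 tested genes were further above control on that array. The spread used as a yardstick, the robust SD of this difference among genes of like level, was 0.28. It measures variation among genes and not between replicates, so lying outside it is no test. Profound 2 differed from control by -0.09, inside its spread of 0.18, and moderate by 0.24, outside its spread of 0.15. Against the array labelled moderate, HMOX1 was 2.09-fold higher on profound 1 (1.06 log2 units). The control does not enter this comparison, but the profound 1 array is the same one. HMOX1 was the only member past 2-fold against control on profound 1, where 0.328% of all tested genes were that much higher.

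SLC7A11 encodes xCT, the transporter subunit that exchanges extracellular cystine for glutamate and so feeds glutathione synthesis. It read 6.82 on profound 1, 5.48 on profound 2, 6.44 on moderate and 6.09 on control. The hairpins labelled profound thus lay on opposite sides of control, profound 1 above by 0.72 log2 units (1.65-fold) and profound 2 below by -0.61 (1.53-fold lower), each beyond its spread (0.28 and 0.18). Only 3 of the 12502 tested genes, or 0.024%, were at least 1.5-fold higher on profound 1 and at least 1.5-fold lower on profound 2, namely SLC7A11, the arrestin-domain gene ARRDC3 and the mitochondrial carrier gene SLC25A23. The array labelled moderate was 0.34 above control, the largest difference of any member on that array. The value on profound 2 lies close to the 1.5-fold line. With the array labelled moderate as the baseline, the difference of profound 1 was 0.38 and that of profound 2 was -0.95.

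SLC3A2, the heavy chain that carries xCT to the cell surface, did not share this pattern. It was chosen for its role as the partner of SLC7A11. It read 8.54 on profound 1, 8.88 on profound 2, 8.92 on moderate and 8.87 on control. It was thus lowest on the array where SLC7A11 was highest, at -0.33 from control on profound 1 and 0.01 on profound 2, short of 1.5-fold on each.

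Glutathione is made by glutamate-cysteine ligase, of which GCLC is the catalytic and GCLM the modifier subunit, and its oxidised form is reduced by glutathione reductase, the product of GSR. GSR read 8.55 on profound 1, 8.31 on profound 2, 8.13 on moderate and 7.94 on control. All 3 RUNX1 hairpin arrays lay above control, by 0.61, 0.37 and 0.19 log2 units (1.52-fold, 1.30-fold and 1.14-fold), where the spreads for genes of this level were 0.22, 0.13 and 0.11. Each of the 3 differences thus exceeded its spread, but all 3 share the control value of 7.94 and are not separate results. The value on profound 1 lies just past the 1.5-fold line. Against the array labelled moderate the difference of profound 1 was 0.42 and did not pass. Between profound 1 and profound 2 GSR differed by 0.23, close to the spread of 0.21.

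The ligase subunits moved less than the reductase. GCLC read 5.24 on profound 1, 5.07 on profound 2, 5.00 on moderate and 4.94 on control. It too was above control on all 3 arrays, by 0.31, 0.13 and 0.07, of which only the value on profound 1 exceeded its spread (0.28). GCLM read 8.33 on profound 1, 8.06 on profound 2, 8.07 on moderate and 8.14 on control. It was 0.19 above control on profound 1 and -0.07 from it on profound 2 and on moderate, each within its spread. Being above control on all 3 arrays was shared by GSR, GCLC and TXNRD1 and by 23.8% of all tested genes, and by 2 members when the arrays were centred on the median of the tested genes.

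NQO1 encodes a quinone reductase and is among the most used indicators of NRF2 activity. It read 8.83 on profound 1, 8.30 on profound 2, 8.74 on moderate and 8.63 on control. Its order across arrays was that of SLC7A11, with profound 2 lowest, but its differences from control were smaller, at 0.20, -0.32 and 0.12. The value on profound 2 exceeded the spread of its level (0.13) and that on profound 1 did not (0.22). Profound 1 and profound 2 were 0.53 apart for NQO1, or 1.44-fold, short of the size rule.

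TXNRD1, the cytosolic reductase of thioredoxin, and SRXN1, which repairs overoxidised peroxiredoxins, did not reach 1.5-fold in any comparison on the probe sets used. TXNRD1 read 7.40 on profound 1, 7.39 on profound 2, 7.31 on moderate and 7.30 on control, a range of only 0.10 over the 4 arrays. Of the 12502 tested genes, 11796 had a wider range. SRXN1 read 6.41 on profound 1, 6.34 on profound 2, 6.19 on moderate and 6.35 on control. Its moderate array stood lowest, at -0.16 from control (-0.40 with the mean of its 2 probe sets), and its value on profound 1 was 0.05 above control, well inside the spread of 0.28. The dim second SRXN1 probe set did pass 1.5-fold, at -0.65 on moderate against control and 0.62 between profound 2 and moderate.

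NFE2L2 itself was nearly constant on the probe set used. It read 7.43 on profound 1, 7.19 on profound 2, 7.24 on moderate and 7.24 on control. The difference of 0.19 on profound 1 was smaller than the spread of 0.26 for genes of its level, and the other arrays were within 0.05 of control. The largest differences among the 9 genes were therefore in transcripts of haem breakdown, cystine import and glutathione reduction. They were not in the transcript of the factor on the probe set used. A probe set that NFE2L2 shares with LOC100130691 was above control by 0.15 on profound 1, 0.43 on profound 2 and 0.23 on moderate.

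**Figure D2:**
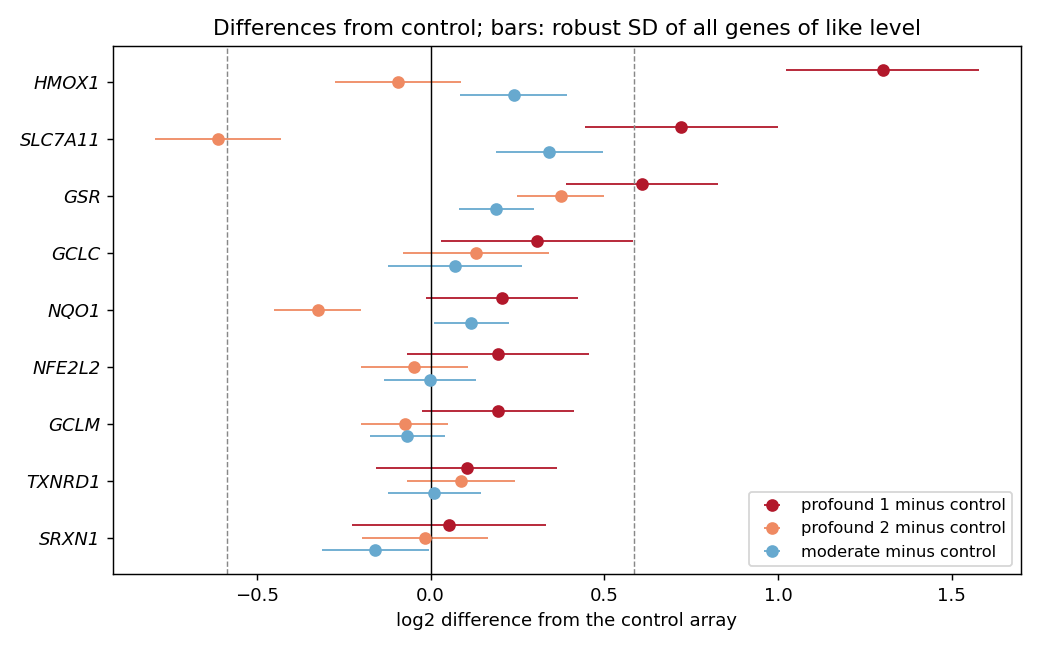
Points give the log2 difference from the control array for each gene and RUNX1 hairpin array, bars the robust SD of that difference among tested genes of like level, and dashed lines 1.5-fold. HMOX1, SLC7A11 and GSR pass on profound 1 and SLC7A11 passes downward on profound 2.

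Where a promoter sequence was at hand, the members were searched for the antioxidant response element, to set the presence of the element beside the values. RefSeq promoters (GRCh38.p14, 250 bases before to 50 after an annotated start) were matched for 6 members: NFE2L2, GCLM, GCLC, NQO1, TXNRD1 and SRXN1. The core TGACNNNGC was searched on both strands; a core with TCA in the open places also holds the AP-1 site TGACTCA. It was found in 2 of the 6, GCLM and TXNRD1, and in 15.2% of the 10241 promoters of tested genes in the table. In GCLM it starts at position -34 and lies on the opposite strand (GCTTAGTCA on the gene strand). In TXNRD1 it starts at position -99 on the gene strand (TGACTTCGC) and again at position -8 on the opposite strand (GCTCCGTCA). Positions are counted from the annotated start used. A gene may have other starts, and whether transcripts in these cells begin at this one was not examined. Below are the promoters of both, from chr1:93909381-93909680 (minus strand) and chr12:104215529-104215828 (plus strand), with the core in capitals, and that of NQO1, from chr16:69726511-69726810 (minus strand), which holds no match in this window. Each is written 5′ to 3′ on the gene strand.
GCLM: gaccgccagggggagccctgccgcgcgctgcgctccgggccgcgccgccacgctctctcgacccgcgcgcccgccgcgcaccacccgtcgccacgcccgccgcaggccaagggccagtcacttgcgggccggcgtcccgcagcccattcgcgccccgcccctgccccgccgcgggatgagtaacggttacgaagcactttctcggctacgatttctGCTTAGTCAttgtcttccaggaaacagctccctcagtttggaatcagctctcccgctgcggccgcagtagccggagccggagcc
TXNRD1: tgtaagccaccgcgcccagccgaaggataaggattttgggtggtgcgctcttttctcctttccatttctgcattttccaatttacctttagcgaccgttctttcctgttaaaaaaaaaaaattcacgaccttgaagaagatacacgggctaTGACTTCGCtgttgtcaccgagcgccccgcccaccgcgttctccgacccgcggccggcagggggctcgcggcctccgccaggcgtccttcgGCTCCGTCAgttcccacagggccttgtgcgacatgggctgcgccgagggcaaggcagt
NQO1: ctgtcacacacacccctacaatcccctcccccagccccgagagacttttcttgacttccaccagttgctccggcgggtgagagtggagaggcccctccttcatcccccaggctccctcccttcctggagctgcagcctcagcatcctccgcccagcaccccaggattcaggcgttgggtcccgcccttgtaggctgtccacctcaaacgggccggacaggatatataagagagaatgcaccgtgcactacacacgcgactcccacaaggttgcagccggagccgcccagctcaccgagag
The promoters with the core belong to genes that were 1.14-fold (GCLM) and 1.07-fold (TXNRD1) from control on profound 1. NQO1, without it here, was 1.15-fold. No promoter was at hand for HMOX1, SLC7A11 and GSR, the members at least 1.5-fold from control on the probe sets used. The search therefore cannot relate the element to those differences. The core bound by RUNX factors, TGTGGT, was found on either strand in 0 of the 6 windows and in 9.68% of all 10241. Elements outside the windows were not searched.

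Between the profound 1 and profound 2 arrays a difference of at least 1.5-fold was found in 2 members, HMOX1 and SLC7A11, both higher on profound 1, where 2.06% of all tested genes were higher and 2.94% lower. HMOX1 was 2.63-fold higher on profound 1 (1.40 log2 units) and SLC7A11 2.52-fold (1.33), where the spread of genes of this level was 0.25. Only 5 and 7 of the tested genes had a larger positive difference than HMOX1 and SLC7A11. On the probe sets used, all 9 members were higher on profound 1 than on profound 2, against 48.9% of all tested genes. For TXNRD1 the difference was only 0.02 and for SRXN1 0.07. With the mean of its 2 probe sets SRXN1 was at -0.01, and 8 members were higher. The control array does not enter this comparison, but the profound 1 array is the one used above. For HMOX1 and SLC7A11 the difference between these arrays exceeded any difference from control.

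**Figure D3:**
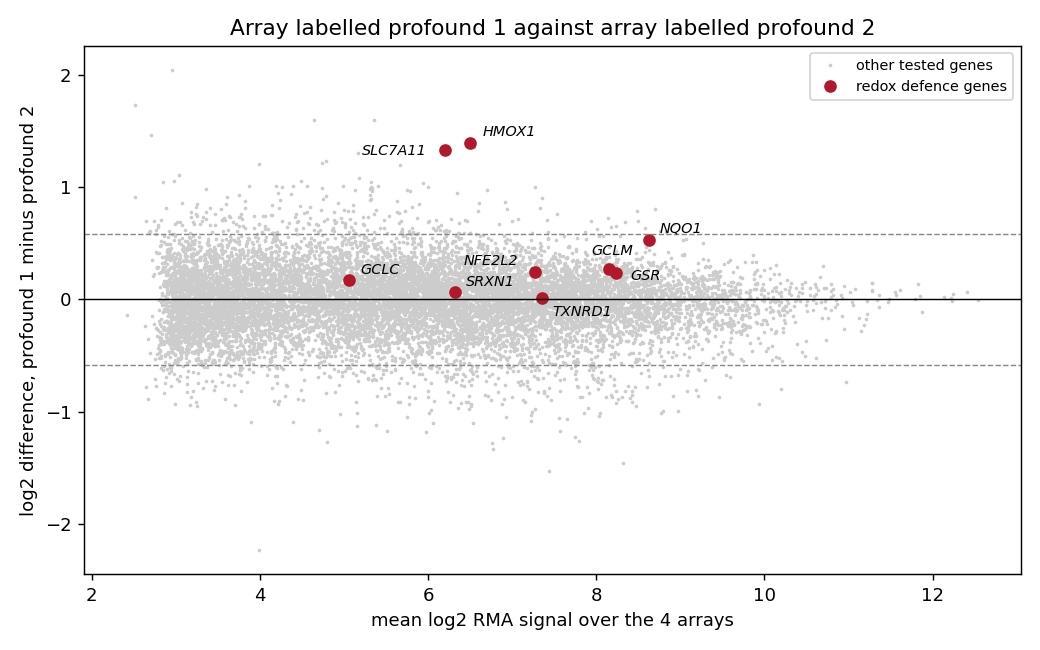
Each point is a tested gene, placed by its mean log2 signal over the 4 arrays and by the log2 difference between the arrays labelled profound 1 and profound 2, with the 9 members in red and dashed lines at 1.5-fold. HMOX1 and SLC7A11 stand at 1.40 and 1.33, near the upper edge of all genes of their level, and NQO1 lies just under the line at 0.53.

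Against the array labelled moderate, 1 member was at least 1.5-fold higher on profound 1, HMOX1, with 1.64% of all tested genes higher and 3.49% lower. On profound 2, 0 were higher and SLC7A11 was lower (-0.95 log2 units, 1.94-fold lower), with 1.04% of all genes higher and 1.59% lower. Only 24 of 12502 genes were further below the array labelled moderate on profound 2 than SLC7A11. NQO1 (-0.44) and HMOX1 (-0.33) were also lower on profound 2 than on moderate, where the spreads of genes of their level were 0.13 and 0.19.

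The regulators and partners of NRF2 were examined next. Of 13 listed genes 9 were measured, and 0 of the 9 were 1.5-fold from control on profound 1, profound 2 or moderate. Among all tested genes, 2.69% were higher and 4.04% lower on profound 1, and 1.2% higher and 1.02% lower on profound 2. On moderate 1.3% passed in either direction. KEAP1 read 8.56 on profound 1, 8.31 on profound 2, 8.36 on moderate and 8.39 on control. The small MAF gene MAFG stayed between 6.89 and 6.98. MAFF, another small MAF gene, was higher on profound 1 than on profound 2 by 0.43 and lay at 3.55 on control, near the table median. NFE2, an erythroid and megakaryocytic relative of NRF2, and NFE2L3, a further relative, were the 2 genes at 1.5-fold against the array labelled moderate: NFE2 was lower on profound 2 (-0.66, and -0.58 from control) and NFE2L3 on profound 1 (-0.65). NFE2 read 3.57 on profound 1, 3.33 on profound 2, 3.99 on moderate and 3.91 on control, also a dim signal. BACH1 shares each of its probe sets with another gene and, like MAFK, was not analysed here.

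Among 16 measured genes of 24 listed as other NRF2 targets, 1 was at least 1.5-fold higher than control on profound 1 and 1 lower. The shares of all tested genes there were 2.69% and 4.04%, and the list's median difference was 0.08. ME1, the cytosolic malic enzyme that makes NADPH, read 5.38 on profound 1, 4.72 on profound 2, 4.50 on moderate and 4.16 on control. All 3 RUNX1 hairpin arrays were above control for ME1, by 1.23, 0.57 and 0.35, the same order of arrays as for GSR. CBR3, a carbonyl reductase, was lower on profound 1 (2.93) than on profound 2 (3.71), moderate (3.47) and control (3.76), a difference from control of -0.83 that ends below the table median. On profound 2 and on moderate 0 of the 16 were 1.5-fold from control. AKR1B10, AKR1C1, AKR1C2 and AKR1C3, strong NRF2 targets in epithelial cells, stayed below the table median on all 4 arrays.

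Of 23 measured genes of other glutathione enzymes, 0 were 1.5-fold higher than control on any array. CHAC2, a glutathione-degrading cyclotransferase, was 1.5-fold lower on profound 1 (-0.60) and the glutathione transferase gene GSTM2 on profound 2 (-0.64). The shares of all tested genes that were lower there were 4.04% and 1.02%. The list's median was -0.05 on profound 1 and -0.01 on profound 2. Between profound 1 and profound 2, the gamma-glutamyltransferase gene GGT5 (0.61) and GSTM4 (0.69) were higher on profound 1. At 1.5-fold, 2.06% of all tested genes were higher there and 2.94% lower. GGT5 had the array order of SLC7A11, with 5.95 on profound 1, 5.35 on profound 2, 5.79 on moderate and 5.65 on control, and GSTM4 was at 0.38 from control on profound 1, -0.31 on profound 2 and 0.39 on moderate. CHAC1, which degrades glutathione and is a target of ATF4, was lower on profound 1 than on profound 2 (-0.84). GSTM4 was also lower on profound 2 than on moderate (-0.70). Members of the GSTM family are close in sequence, so their probe sets may share signal.

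Of 17 measured thioredoxin, peroxiredoxin and superoxide genes, 2 were higher and 2 lower on profound 1, against 2.69% and 4.04% of all tested genes. On profound 2 and on moderate 0 passed. TXNIP, an inhibitor of thioredoxin, read 8.63 on profound 1, 8.45 on profound 2, 7.97 on moderate and 7.89 on control. SESN3, a stress-inducible sestrin, read 5.65 on profound 1, 5.20 on profound 2, 4.81 on moderate and 4.71 on control. The second sestrin gene of the list to pass, SESN2, was lower on profound 1 (-0.72) and 0.29 above control on profound 2. MSRB2, a mitochondrial methionine sulfoxide reductase, was also lower on profound 1 (-0.74). TXN, PRDX1 and SOD1 were short of 1.5-fold on all 3 arrays, as was CAT, at 0.20 from control on profound 1. Of 10 measured genes listed under haem and iron handling, FLVCR1 was the only one at 1.5-fold from control, at -0.62 on profound 1. Of all tested genes, 4.04% were lower on that array.

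SLC7A11 is also a target of ATF4, the factor of the amino acid response, so the cystine and ATF4 list was set beside it. Of 17 measured genes 6 were at least 1.5-fold lower on profound 1 than on control and 0 higher, where 4.04% of all tested genes were lower and 2.69% higher, and the median difference was -0.32. The serine synthesis genes PHGDH (-1.25) and PSAT1 (-0.85), the glutamine transporter gene SLC1A5 (-0.99), ASNS (-0.76), CBS (-0.72) and SLC7A5 (-0.65) made up the 6. SLC7A11, at 0.72, stood on the other side of control from these 6 on that array, while the stress genes DDIT3 (0.53) and DDIT4 (0.51) were above control, short of 1.5-fold. On profound 2 the list's median was 0.01, with DDIT4 (0.70) and DDIT3 (0.59) higher and 0 lower, while SLC7A11 was at -0.61. Of all tested genes, 1.2% were higher there and 1.02% lower. DDIT3 did not pass after cyclic loess (0.57). It read 2.93 on control and 2.92 on moderate, below the table median. It met the filter only through profound 1 (3.46) and profound 2 (3.52). All 17 list genes were lower on profound 1 than on profound 2 (ATF4 itself at -0.03), as were 51.1% of all tested genes. On the probe sets used, all 9 redox members were higher on profound 1. Any part of ATF4 in the SLC7A11 values was not tested.

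**Figure D4:**
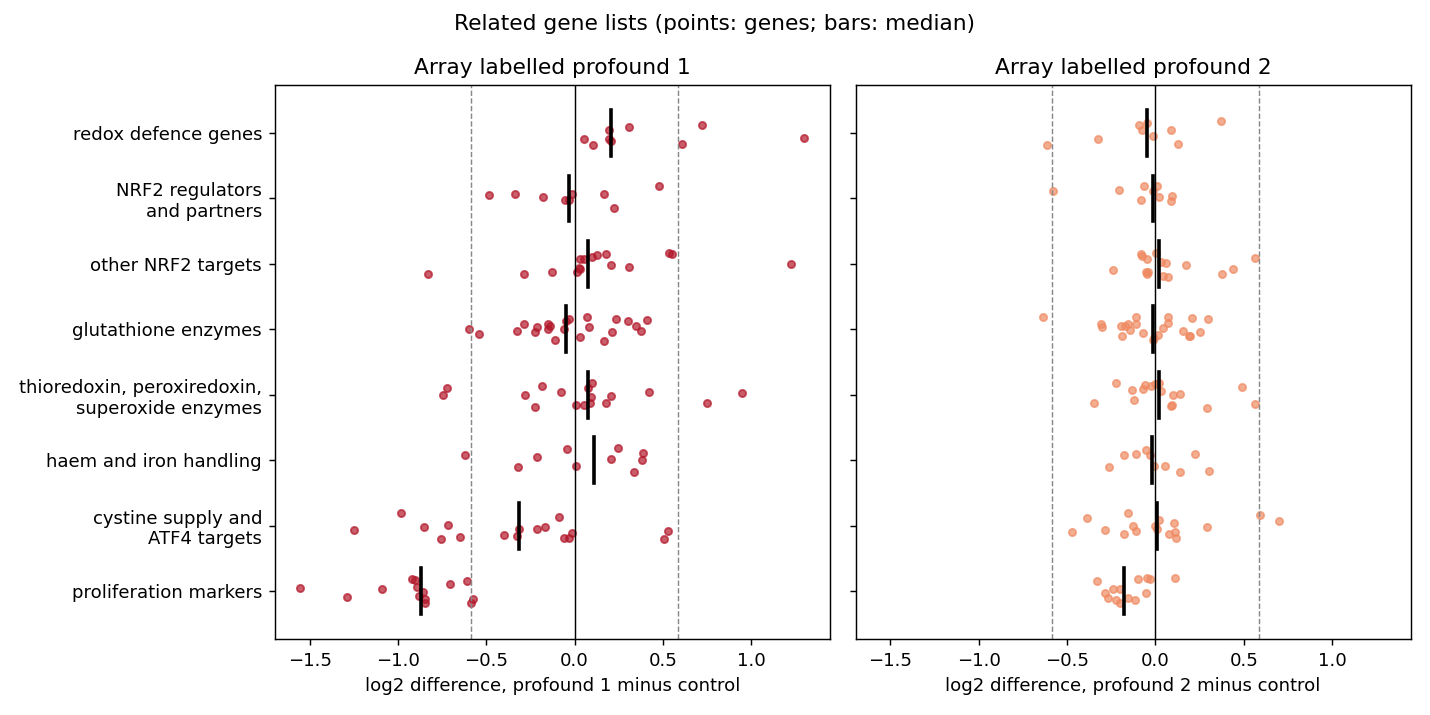
Points are genes, placed by their log2 difference from control on profound 1 (left) and profound 2 (right), vertical bars the list medians and dashed lines 1.5-fold. On profound 1 the 9 redox defence genes lie above 0 while most ATF4 targets (median -0.32) and proliferation markers (median -0.87) lie below it.

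Proliferation markers moved with the array that carries the redox result. On profound 1, 13 of 14 were at least 1.5-fold lower than control, where 4.04% of all tested genes were lower. The median was -0.87, against -0.18 on profound 2 and -0.21 on moderate, where 0 of 14 passed. Among all tested genes 1.02% were lower on profound 2, and 1.3% passed in either direction on moderate. The summed log2 level of the 14 markers was 111.5 on profound 1, 121.9 on profound 2, 121.1 on moderate and 124.1 on control. The part of this difference, and of those of the markers below, in the higher HMOX1, SLC7A11 and GSR signals was not tested. The macrophage gene CD68, a marker of the line's own lineage, read 9.98 on profound 1, 9.91 on profound 2, 9.14 on moderate and 9.28 on control. It was thus at least 1.5-fold above control on profound 1 (0.70) and profound 2 (0.63), where 2.69% and 1.2% of all tested genes were. CD68 was the 1 of 10 myeloid markers to pass, while HMOX1 passed on profound 1 and not on profound 2 (-0.09). The summed log2 level of the 10 was 78.9 on profound 1, 78.8 on profound 2, 78.7 on moderate and 78.1 on control. Among markers of other cell types, the B cell gene CD79A read 4.80 on profound 1, 4.12 on profound 2, 4.64 on moderate and 4.20 on control, and was 1.5-fold above control on profound 1. The summed log2 level of the 3 measured B cell markers was 12.2 on profound 1, 11.3 on profound 2, 11.6 on moderate and 11.4 on control, and MS4A1 was below the table median on all 4 arrays.

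The 5 tested genes whose pattern over the 4 arrays lay nearest to that of HMOX1, the member with the widest range (1.40), were found by Euclidean distance between values centred on each gene's mean. They were the galanin receptor gene GALR2 (distance 0.16 log2 units), the chromatin factor gene ARID5B (0.27), the leukocyte receptor gene LILRA2 (0.28), the transcriptional repressor gene BCL6 (0.30) and ZCWPW1 (0.32). GALR2 read 6.43 on profound 1, 4.83 on profound 2, 5.19 on moderate and 4.99 on control. ARID5B was below the table median on all arrays but profound 1. Among the members SLC7A11 was the nearest to HMOX1, at 0.61, with 93 tested genes nearer, and TXNRD1 the furthest, at 1.06, with 4439 nearer. Values were centred but not scaled, so the distance reflects the size of a gene's differences as well as their order over the arrays. SLC7A11 had a range of 1.33 and TXNRD1 of 0.10, so these ranks do not compare the shape of the patterns alone. The likeness rests on 4 arrays and is a description.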

How the data were processed

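RNA of MV4-11 cells was hybridised to 4 whole-transcript arrays, 1 per hairpin. The authors deposited log2 signals of 53617 probe sets, and per the submitters' processing notes these came from RMA, with Transcriptome Analysis Console 1.0 and Affymetrix Expression Console 1.3.1 named. Settings and build: not given in the sources used here. RMA equalises the arrays' distributions, so a shift of most genes cannot be seen, and it compresses differences of dim probe sets. Precision is limited by the number of arrays. Groups follow the genotype field, with 0 unused columns. The platform annotation gives 1 symbol to 23871 probe sets, several to 1842 and none listed to 27904; symbols and biotypes were updated by Entrez ID in RefSeq GRCh38.p14. Protein-coding genes above the table median (3.08) on at least 1 array were tested (12502). A gene was counted at 1.5-fold. The spread is the scaled median absolute deviation within 6 classes of mean level. Named genes are the members, RUNX1, list genes at 1.5-fold in any of 6 comparisons (others are named as examples), KEAP1 and small MAF genes, and the 5 nearest patterns. Of the proliferation list the counts, medians and summed levels are given without gene names. Of the marker lists CD68, CD79A and the markers on either side of the table median are named. The members and lists were chosen with earlier results of these data known. Alternatives were a 2-fold rule, cyclic loess (limma 3.58.1), median centring, other probe-set rules, other filters and another baseline. Simulated arrays with known changes were used to test the script. Figures used matplotlib 3.10.9.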

Additional observations from a re-analysis of the deposited data

Results flagged for a closer look

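SLC7A11 stood out because the hairpins labelled profound lay on opposite sides of control, each by at least 1.5-fold. Its log2 difference was 0.72 on profound 1 and -0.61 on profound 2. Each hairpin is 1 array, both are set against the same control array, and the difference between them (1.33) was not tested.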

How the results depend on the processing

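The calls among the 9 genes changed with the size rule and with the baseline. At 2-fold, 1 member was called on profound 1 against control (HMOX1), 0 on profound 2, and 0 between profound 2 and moderate. Cyclic loess and median centring moved the 108 recomputed member differences by at most 0.05 log2 units, less than the spread of their level. The filters cannot change a member's difference, and the probe-set rule bears on SRXN1 alone, whose difference on moderate became -0.40 (main -0.16) and between profound 2 and moderate 0.38 (main 0.14). With every probe set counted on its own, a dim second SRXN1 probe set raised the count to 1 on moderate against control and to 2 between profound 2 and moderate. In the related lists without the proliferation markers, the genes called at 2-fold were 2 on profound 1 (14 at 1.5-fold), 0 on profound 2 (3), 1 between profound 1 and profound 2 (10), 0 between profound 1 and moderate (8) and 0 between profound 2 and moderate (3). The 75th-percentile filter left 0 on profound 2 and 1 between profound 2 and moderate, since it tests fewer dim genes (70 against 92). On profound 2 the 3 calls (2 higher, 1 lower) became 1 higher and 2 lower after cyclic loess, where DDIT3 was lost and NFE2 gained, and 2 calls with the mean over probe sets, where DDIT3 was lost. Median centring gave 1 on moderate, against 0. With the array labelled moderate as the baseline, SLC7A11 (0.38) and GSR (0.42) were no longer past 1.5-fold on profound 1, which leaves HMOX1, 1 member of 3. No paired analysis was possible because each group holds 1 array.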

Other observations

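Further probe sets list SRXN1 and NFE2L2. A second SRXN1 probe set read 3.86 on profound 1, 3.95 on profound 2, 3.33 on moderate and 3.97 on control, so that moderate was lowest on this one too, by -0.65 from control. A probe set that lists SRXN1 with SCRT2 was below the table median on all 4 arrays, at 2.60 on profound 1, 2.75 on profound 2, 2.79 on moderate and 2.48 on control, with moderate highest. A probe set that lists both NFE2L2 and LOC100130691 read 4.93 on profound 1, 5.20 on profound 2, 5.01 on moderate and 4.78 on control, with profound 2 highest, where the NFE2L2 probe set was lowest on profound 2.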
